A study of Mus musculus with 6 samples.

Results

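The interferon regulatory factors are a family of transcription factors that share a DNA-binding domain, and the 8 members described here are Irf1, Irf2, Irf3, Irf4, Irf5, Irf7, Irf8 and Irf9. They were chosen by gene symbol among 29721 genes with counts, and all 8 passed the filter on low counts that left 17652 genes for testing. RNA was sequenced from pancreas of 3-month-old Ela-myc mice, 3 with wild-type Parp2 (WT) and 3 with a Parp2 knockout (PARP2 KO), each library from a different animal. All 6 animals belong to the Ela-myc model, in which Myc is driven by the elastase promoter, so that both groups carry the transgene and differ in Parp2. The study asked how loss of PARP2, a nuclear enzyme that responds to DNA breaks, bears on pancreatic tumour development. The sources used here give neither strain nor the extent of the Parp2 deletion, and the protocol speaks of tumour samples while the tissue label is pancreas.

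These factors bind DNA elements built around repeats of the letters GAAA, such as the interferon-stimulated response element. Irf3 and Irf7 start the transcription of type I interferon genes after a virus or foreign nucleic acid is sensed. Irf9 is the DNA-binding part of ISGF3, the complex with STAT proteins that answers type I interferon, while Irf1 and Irf2 act as activator and repressor on shared elements. Irf4, Irf5 and Irf8 work mostly in white blood cells, which a healthy pancreas holds in small number.

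Libraries held between 28105021 and 32055565 counts. Judged from Xist and Y-linked transcripts, 2 of the WT and 1 of the PARP2 KO animals were male. Parp2 had 40.5, 36.4 and 37.5 CPM (counts over TMM-scaled library size) in WT and 14.4, 12.4 and 13.6 CPM in PARP2 KO. Genes of acinar cells, the enzyme-secreting cells of the pancreas, took 32.1%, 34.0% and 25.7% of counts in WT replicates 1 to 3. In PARP2 KO replicates 1, 2 and 3 they took 5.03%, 16.6% and 0.0199%, so replicate 3 was almost without them and stood apart from the other libraries. The carboxypeptidase gene Cpa1, a defining acinar gene, had 28080, 24760 and 18250 CPM in WT and 3054, 11810 and 11.2 CPM in PARP2 KO. With PARP2 KO libraries this far apart, 0 of 34 acinar genes passed the edgeR test given below in either direction. Their median log2 fold change was -2.36, and Cpa1 had an edgeR adjusted p of 0.307. General white blood cell genes moved the other way. All 14 measured genes of a leukocyte list were higher in PARP2 KO, with a summed level of 1040 to 1610 CPM in WT and 3700 to 5620 CPM in PARP2 KO. Markers of other cell types differed too. The counts of each list are to be read beside all tested genes, of which 28% were higher and 25% lower. Fat cell genes were higher in 10 of 10 cases (median log2 fold change 3.38), with sums of 968 to 2150 CPM in WT and 11700 to 15600 CPM in PARP2 KO. Endothelial genes were higher in 8 of 9 cases, with sums of 387 to 437 and 966 to 1090 CPM. Of 11 islet genes 4 and of 8 duct genes 3 were lower, with sums of 1470 to 3470 against 3.44 to 619 CPM and of 1300 to 2070 against 14.2 to 593 CPM. Replicate 3 of PARP2 KO was the lowest here too. Log2 medians relative to the WT mean were -3.11, -1.60 and -7.08 for islet genes in PARP2 KO replicates 1, 2 and 3. For duct genes they were -2.96, -1.27 and -4.44. The part of these cell types in the differences of the family and pathway genes was not tested. In bulk tissue, more cells of a type and more RNA per cell cannot be told apart.

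Of the 8 members, 5 rose in PARP2 KO (Irf4, Irf8, Irf1, Irf5 and Irf2) and 0 fell, by the edgeR quasi-likelihood test with p-values adjusted over all 17652 genes and 0.05 as the threshold. Of all tested genes, 28% were higher and 25% lower by the same rule. Irf3, Irf7 and Irf9 did not pass. At an unadjusted p under 0.05, and with DESeq2 or limma in place of edgeR, also 0 members fell. In 6 of the 8 genes every PARP2 KO library lay above every WT library. That was so for 34.4% of tested genes, while 33.7% had all PARP2 KO libraries below and 68.1% had no overlap in either direction. The 5 rises passed under all 15 other settings tried, which include leaving out each library in turn, with a highest adjusted p of 0.017. Without PARP2 KO replicate 3 their log2 fold changes were 2.27 for Irf4, 2.09 for Irf8, 1.42 for Irf1, 0.98 for Irf5 and 0.77 for Irf2.

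**Figure D1:**
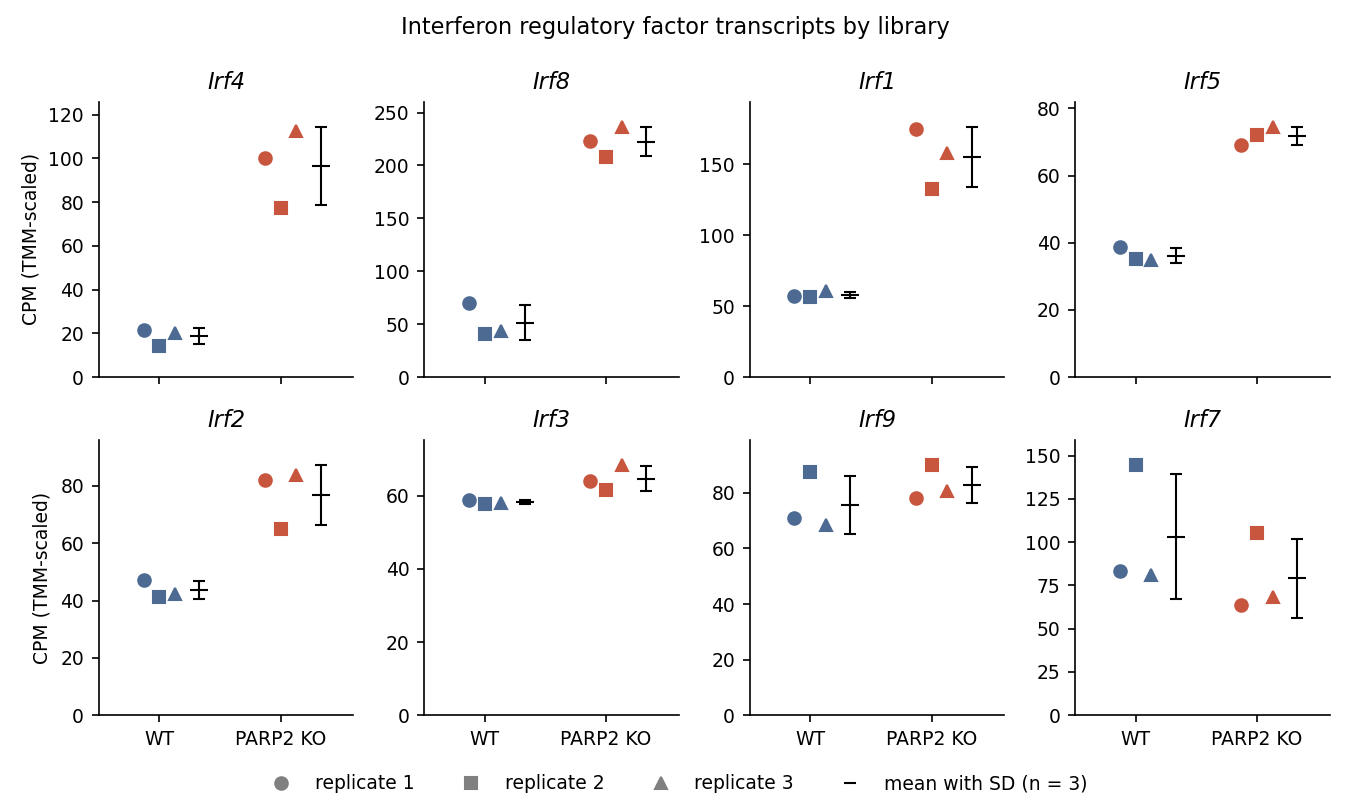
Level of each interferon regulatory factor gene in CPM (vertical axis, from 0) in the 3 WT and 3 PARP2 KO libraries, with mean and SD beside the points. Irf4, Irf8, Irf1, Irf5 and Irf2 lie higher in every PARP2 KO library, Irf3 is separated by a small margin, and Irf9 and Irf7 overlap.

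Irf4 (ENSMUSG00000021356, chromosome 13, 30749226 to 30766976, GRCm38), which directs plasma cell formation and the activation of T and B lymphocytes, showed the largest rise of the family. It had 21.4, 14.4 and 19.9 CPM in WT and 100.3, 77.1 and 112.3 CPM in PARP2 KO. The lowest PARP2 KO library thus lay well above the highest WT library. The mean went from 18.6 ± 3.65 to 96.6 ± 17.9 CPM (SD, n = 3 each), a 5.20-fold difference and a log2 fold change of 2.38 (standard error 0.206, adjusted p = 0.00201 in edgeR).

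Irf8 (ENSMUSG00000041515, chromosome 8, 120736358 to 120756694), needed for dendritic cells of the cross-presenting type and active in monocytes and B cells, had 70.4, 40.7 and 43.4 CPM in WT and 223.3, 208.3 and 236.4 CPM in PARP2 KO. WT replicate 1 was the highest of its group and still less than all PARP2 KO libraries. The mean rose from 51.5 ± 16.4 to 223 ± 14 CPM (SD, n = 3 each; log2 difference 2.11, standard error 0.226, adjusted p = 0.00218 in edgeR).

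Many markers of the cells that use Irf4 and Irf8 were higher in the same libraries. The T cell receptor gene Cd3e had 13, 4.04 and 10.7 CPM in WT and 71.1, 30.4 and 85.5 CPM in PARP2 KO. Xcr1, a chemokine receptor of cross-presenting dendritic cells, had 6.22, 4.13 and 3.75 against 17.6, 19.2 and 24.1 CPM. Siglech, of plasmacytoid dendritic cells, had 13.2, 2.11 and 4.68 against 88.6, 66.9 and 62.0 CPM. Over whole lists, 14 of 14 B cell genes, 14 of 15 T cell genes, 9 of 9 natural killer cell genes and 5 of 7 cross-presenting dendritic cell genes were higher. By list the median log2 fold changes were 2.81, 2.77, 2.03 and 2.11 in that order, beside 2.38 for Irf4 and 2.11 for Irf8. Summed levels of the lists ran from 551 to 1050 CPM in WT and 3500 to 5130 CPM in PARP2 KO for B cells. For T cells they ran from 111 to 296 against 650 to 1710 CPM, and for natural killer cells from 89.9 to 96.3 against 145 to 151 CPM. For the cross-presenting dendritic cells they ran from 126 to 171 against 375 to 434 CPM. Much of the natural killer cell sum was Tyrobp, named with its values known, at 83.7, 81.8 and 79.2 against 103.3, 107.1 and 94.3 CPM. Its log2 fold change was 0.32, below the list median of 2.03. The list for the other conventional dendritic cells, whose development uses Irf4, moved less. Of its 8 genes 5 were higher (median log2 fold change 0.53), with sums of 261 to 280 CPM in WT and 341 to 370 CPM in PARP2 KO, and Clec10a, Mgl2 and Cd209a did not pass. Of 9 plasma cell genes 5 were higher and 2 lower, with sums of 410 to 1120 and 1910 to 2710 CPM. Of 9 plasmacytoid dendritic cell genes 6 were higher and 1 lower, with a median log2 fold change of 1.55. Their sums were 286 to 341 CPM in WT and 409 to 453 CPM in PARP2 KO once Klk1, an acinar gene that the list also holds, was left out. Much of the WT sum was Bst2, named with its values known, which fell from 184.4 to 84.9 CPM in the mean. Macrophage genes were divided, with 4 of 13 higher and 2 lower, beside 28% and 25% of all tested genes. Their median log2 fold change was -0.03, with sums of 1420 to 1560 CPM in WT and 2040 to 2510 CPM in PARP2 KO. Much of the higher sum came from Marco, named with its values known, which had 130.7, 4.99 and 25.1 against 830.8, 736 and 616.7 CPM. The macrophage receptor gene Adgre1 had 104.4, 103.4 and 120.8 CPM in WT and 112.5, 135.4 and 83.0 CPM in PARP2 KO. Each gene of these lists that had a row had counts in at least 1 library. The part of these cells in the rise of the members was not tested.

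Irf1 (ENSMUSG00000018899, chromosome 11, 53770014 to 53778374), a factor induced by interferon gamma that switches on genes of antigen presentation, had 57.3, 56.3 and 60.6 CPM in WT. Its PARP2 KO libraries had 175.1, 132.7 and 158.1 CPM. The WT values lay close together, and every PARP2 KO library was above them by more than the spread within either group. The mean rose from 58.1 ± 2.24 to 155 ± 21.3 CPM (SD, n = 3 each; log2 difference 1.42, standard error 0.117, adjusted p = 0.00201 in edgeR).

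Irf2 (ENSMUSG00000031627, chromosome 8, 46739732 to 46847458), the repressor that competes with Irf1, had 47.2, 41.3 and 42.2 CPM in WT and 81.9, 64.9 and 83.9 CPM in PARP2 KO. Here too the groups did not overlap. Its log2 fold change was 0.82 (standard error 0.123, adjusted p = 0.00376 in edgeR). Because both genes rose, their count ratio within each library is of use, as it does not depend on scaling. The log2 ratio of Irf1 to Irf2 was 0.28, 0.45 and 0.52 in WT and 1.10, 1.03 and 0.92 in PARP2 KO. Relative to Irf2, Irf1 was thus higher in each PARP2 KO library, by 0.60 on the log2 scale (two-sided exact permutation test, p = 0.10, which is the lowest value for 3 libraries against 3, and 0.30 adjusted over the 3 ratios compared).

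Irf5 (ENSMUSG00000029771, chromosome 6, 29526625 to 29541871), which acts downstream of Toll-like receptors in myeloid and B cells, had the tightest groups among the genes that rose. It had 38.6, 35.2 and 34.7 CPM in WT and 69.1, 72.2 and 74.4 CPM in PARP2 KO. That amounts to a log2 fold change of 0.99 (standard error 0.0808, adjusted p = 0.00201 in edgeR). Of its 2905 exon bases, 411 are shared with Tnpo3 on the opposite strand. The strand setting of the counting is not given in the sources used here, so some reads may belong to Tnpo3.

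Irf3 (ENSMUSG00000003184, chromosome 7, 44997648 to 45002848), the constitutive factor that TBK1 phosphorylates, had 58.8, 57.9 and 58.1 CPM in WT and 64.0, 61.7 and 68.5 CPM in PARP2 KO. The groups did not overlap, but the difference was small and did not pass. Its log2 fold change was 0.15, with a 95% interval from -0.03 to 0.33 (edgeR adjusted p = 0.125).

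Irf9 (ENSMUSG00000002325, chromosome 14, 55603571 to 55610030) had 70.8, 87.5 and 68.6 CPM in WT and 78.0, 90.1 and 80.6 CPM in PARP2 KO. WT replicate 2 was higher than PARP2 KO replicates 1 and 3, so the groups overlapped. The log2 fold change was 0.13 (95% interval -0.16 to 0.42, edgeR adjusted p = 0.374). Irf9 lies 4.78 Mb from Parp2 on the same chromosome. Of 130 tested genes within 5 Mb of Parp2, 36 were higher and 36 lower, or 55.4% against 53% of all tested genes.

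Irf7 (ENSMUSG00000025498, chromosome 7, 141262706 to 141266481), which interferon itself induces and which is abundant in plasmacytoid dendritic cells, was the member with the widest spread. It had 83.6, 144.7 and 81.0 CPM in WT and 63.8, 105.5 and 68.3 CPM in PARP2 KO. WT replicate 2 and PARP2 KO replicate 2 were the highest libraries of their groups and held the largest acinar share in each. Replicate numbers follow sample order and pair no libraries across genotypes. WT replicates 1 and 3 had acinar shares of 32.1% and 25.7% with near-equal Irf7. PARP2 KO replicate 3, at 0.0199%, had more Irf7 than PARP2 KO replicate 1, at 5.03%. A link of Irf7 to acinar share was not tested. PARP2 KO replicate 2 exceeded 2 of the WT libraries in Irf7. The log2 fold change was -0.38 (95% interval -1.12 to 0.36, edgeR adjusted p = 0.317). The log2 count ratio of Irf7 to Irf3 was 0.51, 1.32 and 0.48 in WT and -0.01, 0.77 and 0.00 in PARP2 KO, overlapping ranges (difference -0.52, two-sided exact permutation p = 0.30). That of Irf4 to Irf8 was -1.72, -1.49 and -1.13 in WT and -1.15, -1.43 and -1.07 in PARP2 KO, a difference of 0.23 that lay within the spread of WT (exact permutation p = 0.30).

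The scaling matters for these 3 members. Scaled by library totals alone, the data had 7475 genes higher and 2160 lower, against 4938 and 4415 with TMM. The median log2 fold change of all genes moved from 0.02 to 0.42, and 42.3% of genes were higher. Irf3 and Irf9 then passed as higher, with log2 fold changes of 0.56 and 0.53 (edgeR adjusted p = 0.0125 and 0.00853), and that of Irf7 was 0.01, so that 7 of 8 members were higher. Relative to the shifted median, Irf3 and Irf9 stood about where they had stood before.

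To set the members side by side, CPM was divided by the summed length of each gene's exons in kb. In WT, Irf7 had the highest level at 27.3 ± 9.55 CPM per kb (SD, n = 3), followed by Irf3 (16.9 ± 0.138), Irf1 (14.6 ± 0.564), Irf9 (14.1 ± 1.92), Irf5 (12.4 ± 0.733), Irf8 (7.30 ± 2.32), Irf2 (5.89 ± 0.428) and Irf4 (3.79 ± 0.745). Irf1 and Irf9 overlapped in range, as did Irf9 and Irf5, and Irf8 and Irf2. In PARP2 KO the order began with Irf1 (39.1 ± 5.37) and Irf8 (31.6 ± 1.99), whose ranges overlapped slightly, followed by Irf5 (24.8 ± 0.924), Irf7 (21.0 ± 6.07), Irf4 (19.7 ± 3.65), Irf3 (18.8 ± 1.01), Irf9 (15.4 ± 1.18) and Irf2 (10.4 ± 1.41). The range of Irf7 overlapped those of Irf5, Irf4 and Irf3. That of Irf4 overlapped those of Irf3 and Irf9, and in PARP2 KO replicate 2 Irf9 was above Irf4. With the longest transcript as the length, all 8 members kept their place in WT, and 4 did in PARP2 KO.

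The make-up of the family therefore differed between the genotypes. Irf7 made 26.3% ± 6.82 of the summed level per kb in WT and 11.7% ± 3.74 in PARP2 KO, while Irf8 made 7.20% ± 2.44 and 17.5% ± 0.551 (SD, n = 3 each). Irf4 went from 3.75% ± 0.973 to 10.9% ± 1.70 and Irf1 from 14.4% ± 1.80 to 21.6% ± 2.61. Irf2 took 5.79% ± 0.714 and 5.74% ± 0.627, a difference smaller than the spread. The summed level of the 8 genes was 102 ± 9.02 CPM per kb in WT and 181 ± 5.61 CPM per kb in PARP2 KO. A share can fall because this sum rose, and the level of Irf7 itself did not pass. Two-sided exact permutation p was 0.10, the smallest possible, for the sum and for the shares of Irf7, Irf8, Irf4 and Irf1.

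**Figure D2:**
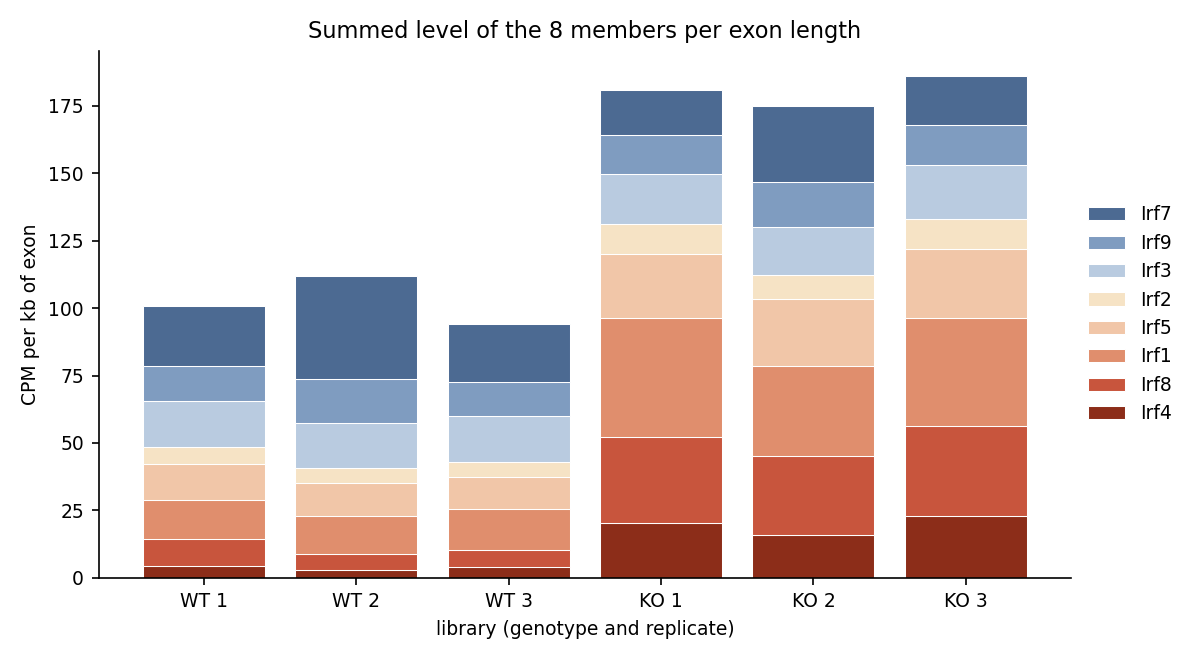
Level per kb of exon of the 8 genes, stacked, in each library (bars, from 0, in CPM per kb). The sum is about 102 in WT and 181 in PARP2 KO, and the lower segments (Irf4, Irf8 and Irf1) make up more of the bar in PARP2 KO.

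Each member was also set against the white blood cell genes of its own library, as log2(CPM + 0.5) minus the mean over the 14 leukocyte genes. That mean was 6.42, 5.78 and 6.06 in WT and 7.99, 7.66 and 8.25 in PARP2 KO, a difference of 1.88. On this scale Irf4 was higher in all 3 PARP2 KO libraries, at -1.33, -1.38 and -1.43 against -1.97, -1.88 and -1.71, a difference of 0.47 (two-sided exact permutation p = 0.10, the smallest possible). Irf8 differed by 0.27 with overlapping groups (exact permutation p = 0.20), and by -0.07 when Ptprc, the pan-leukocyte phosphatase CD45, was the only reference. Irf1 was at -0.57, 0.04 and -0.13 in WT and -0.53, -0.60 and -0.94 in PARP2 KO, again overlapping (difference -0.47, exact permutation p = 0.20). The other 5 members were lower relative to leukocyte genes in all 3 PARP2 KO libraries, by -0.89 for Irf5, -1.07 for Irf2, -1.73 for Irf3, -1.74 for Irf9 and -2.24 for Irf7 (exact permutation p = 0.10 for each). Thus 2 of 8 members had a larger log2 difference than the leukocyte genes, or 1 with Ptprc as the reference. The median log2 fold change was 1.91 for the leukocyte list and 2.81 and 2.77 for the B and T cell lists. It was 1.86 for the plasma cell list and 0.53 for the list of other conventional dendritic cells. Irf4 had 2.38, and its level relative to these single cell types was not tested.

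**Figure D3:**
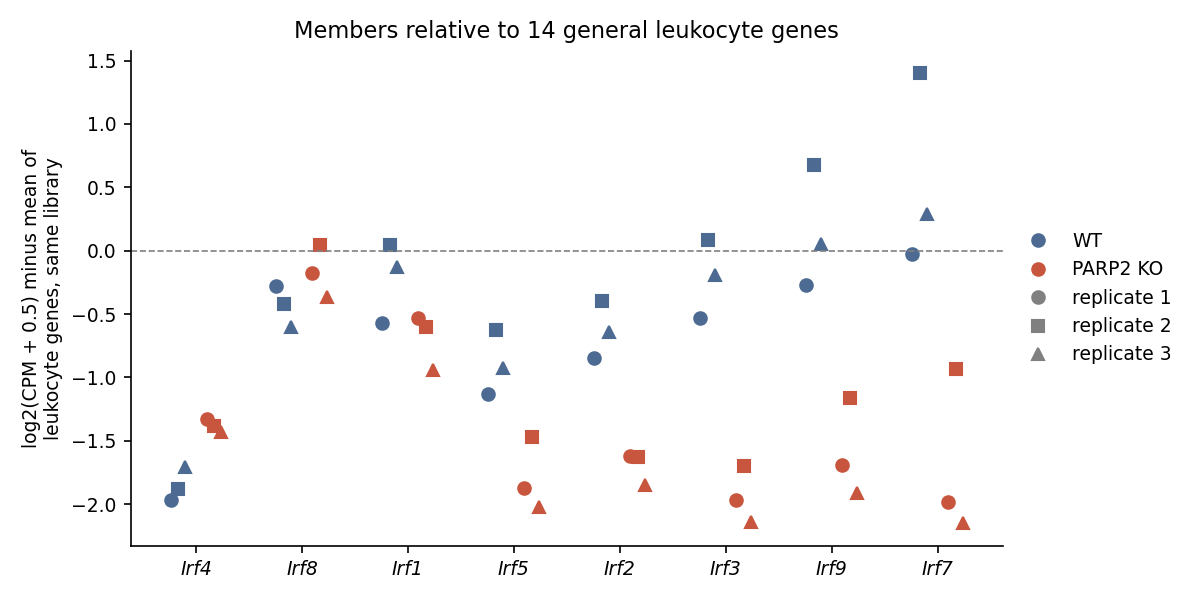
Log2(CPM + 0.5) of each member minus the mean of 14 leukocyte genes in the same library (vertical axis, log2 units), WT and PARP2 KO side by side, 1 symbol per replicate. Irf4 lies above WT in each PARP2 KO library, Irf8 and Irf1 overlap, and Irf5, Irf2, Irf3, Irf9 and Irf7 lie below.

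The profiles of some members ran close together. As a measure of likeness, the log2(CPM + 0.5) values of each gene were centred on their mean over the 6 libraries, and the root-mean-square difference between 2 genes was taken. Irf3 and Irf9 differed by 0.149, Irf2 and Irf5 by 0.151, and Irf4 and Irf8 by 0.228, the 3 smallest values of the 28 pairs. Among 13689 genes with a mean of at least 1 CPM, those nearest to Irf1 were Tmed8 (0.0435), the interferon-inducible GTPase gene Gbp7 (0.055) and Slc25a53 (0.0638). Nearest to Irf2 were the chromatin genes Kdm3b (0.0165) and Bptf (0.0472) and the lysosome-related organelle gene Hps3 (0.0496). Irf4 was closest to the early growth response gene Egr3 (0.0824), the interleukin-2 receptor gene Il2rb (0.0921) and Ppp1r16b (0.102). Irf5 was closest to Adap1 (0.0318), the prosaposin gene Psap (0.0348) and Txndc16 (0.048). Irf8 was closest to the kynurenine enzyme gene Kmo (0.0681), Wdfy4, which is needed for cross-presentation by dendritic cells (0.0738), and the heparanase gene Hpse (0.0924).

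Interferon gamma acts on its target genes through GAS elements, written here as TTCNNNGAA, which reads the same on both strands. RefSeq start sites on GRCm38.p6 gave 11 windows of 250 bases upstream for the 8 members. This motif was found in 3 of the 11 windows, those of Irf1, Irf8 and Irf2, and in 7.02% of 32851 windows of the same length over all genes. These 3 stretches are shown because the genes rose and carry the element close to the start site, with each GAS match in capitals.
Irf1, chr11:53769904-53770013, plus strand: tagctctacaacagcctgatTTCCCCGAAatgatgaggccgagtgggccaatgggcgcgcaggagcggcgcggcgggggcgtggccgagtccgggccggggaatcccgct
Irf8, chr8:120736168-120736257, plus strand: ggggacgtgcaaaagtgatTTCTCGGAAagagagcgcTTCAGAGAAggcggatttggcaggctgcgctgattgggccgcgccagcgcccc
Irf2, chr8:46739516-46739575, plus strand: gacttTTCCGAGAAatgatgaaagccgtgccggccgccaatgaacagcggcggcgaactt
The match starts at position -90 relative to the start site in Irf1, at -171 and -153 in Irf8, and at -224 in Irf2. Other motifs were searched on both strands. The core of the interferon-stimulated response element (GAAA, any 2 bases, GAAA) was found in Irf2 at -241 and in 2.98% of all windows. It overlaps there with a match at -247 to the ETS-IRF composite element (GGAA, any 2 bases, GAAA), found in 2.30% of windows. The kappa B letters (GGG, any 5 bases, CC) occurred in 8 of 11 member windows and in 45.8% of all. The GAS and response element letters were not in the windows used for Irf3, Irf4, Irf5, Irf7 and Irf9, and both Irf9 windows lie wholly or partly in Irf9 exons of GENCODE vM21. A match describes letters and is no measurement of binding.

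Upstream of the members, genes of the interferon gamma and type I interferon receptors were higher. Of 13 genes for receptors, JAK kinases and STAT factors 10 rose and 0 fell, beside 28% higher and 25% lower of all tested genes. Their median log2 fold change was 0.79, against 0.02 over all tested genes. At an unadjusted p under 0.05 1 was lower, the interferon lambda receptor gene Ifnlr1 (log2 fold change -1.03, edgeR adjusted p = 0.0575), named with its values known. DESeq2, limma, and edgeR without PARP2 KO replicate 2 also called 1 gene of this list lower. The interferon gamma receptor gene Ifngr1 went from 88.2 ± 3.90 to 170 ± 14.7 CPM and the type I receptor gene Ifnar2 from 31.5 ± 2.21 to 54.6 ± 2.69 CPM. The kinase gene Jak2 went from 66.8 ± 6.86 to 168.5 ± 30.9 CPM (SD, n = 3 each). Stat2, a subunit of ISGF3, had 81.0, 103.5 and 80.9 CPM in WT and 93.9, 99.1 and 92.8 CPM in PARP2 KO and did not pass (edgeR adjusted p = 0.459). Stat2 was picked with its values known.

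Interferon transcripts themselves were near the limit of detection. Of 21 interferon genes looked up, 3 had rows used here. Ifng, the gene of interferon gamma, had 2, 3 and 4 counts in WT and 12, 13 and 17 in PARP2 KO (log2 difference 1.72, standard error 0.379, adjusted p = 0.0114 in edgeR), a call that DESeq2 did not share (adjusted p = 0.0664). Ifnk and Ifnz had at most 2 counts in any library and were not tested.

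Sensors and adaptors that feed Irf3, Irf5 and Irf7 were higher in 12 of 22 cases and lower in 2, with a median log2 fold change of 0.44. Of all tested genes, 28% were higher and 25% lower. Tlr9, the receptor for unmethylated DNA, went from 14 ± 2.42 to 42.4 ± 3.32 CPM, and Tmem173, which encodes STING, from 35.6 ± 5.09 to 85.8 ± 9.42 CPM (SD, n = 3 each). Unc93b1, which carries Toll-like receptors to endosomes, and the kinase gene Irak4 rose by 0.87 and 0.88 on the log2 scale. The 2 that were lower, named after their values were seen, were Irak1 (log2 fold change -0.47) and the adaptor gene Ticam1 (-0.35). The call of Ticam1 ended when any library except PARP2 KO replicate 2 was left out, with no count filter, with sex as a term and with DESeq2, and scaling by library totals alone ended both calls.

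DNA-binding partners of the family were higher in 9 of 15 cases and lower in 1, with a median log2 fold change of 0.86. Spi1, which encodes the myeloid and B cell factor PU.1 that recruits Irf4 and Irf8, went from 30.9 ± 3.99 to 61.6 ± 0.523 CPM (SD, n = 3 each). Cebpa, which is also a fat cell factor, and Tcf3 rose by 1.33 and 0.82 on the log2 scale. The fat cell genes Pparg and Adipoq rose by 2.13 and 3.27 in the same libraries, and their part in the rise of Cebpa was not tested. Jun, an AP-1 subunit, was the 1 that fell, from 114 ± 12.1 to 43.6 ± 9.33 CPM. Among 14 inhibitors 8 rose and 2 fell (median 0.53), beside 28% higher and 25% lower of all tested genes. Tnfaip3, which encodes the ubiquitin-editing enzyme A20, went from 21.2 ± 2.31 to 84.0 ± 9.43 CPM and Socs1, the JAK inhibitor induced by interferon, from 3.07 ± 0.206 to 7.87 ± 1.54 CPM. Ptpn6 and Trim21 rose by 1.77 and 0.85 on the log2 scale. Fkbp4, a co-chaperone gene named after its values were seen, fell by 1.49 on the log2 scale. The number of inhibitors that fell was 1 when any library except PARP2 KO replicate 2 was left out, with sex as a term, with no count filter and when library totals alone set the scale.

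Among genes known as targets, those of Irf1 were mostly higher. Of 24 listed, 21 rose and 1 fell, beside 28% higher and 25% lower of all tested genes. The list had a median log2 fold change of 0.99, against 0.02 over all tested genes and 1.91 for the leukocyte list. In PARP2 KO replicates 1, 2 and 3 its medians were 1.12, 0.86 and 1.03 above the WT mean. The part of white blood cells in these rises was not tested. The immunoproteasome gene Psmb9 had 29.9, 27.8 and 26.7 CPM in WT and 85.5, 77.8 and 94.2 CPM in PARP2 KO. Psmb8, another subunit, went from 62.4 ± 4.76 to 172 ± 21.7 CPM. Cd274, which encodes the checkpoint ligand PD-L1, went from 15.1 ± 2.13 to 66.5 ± 11.0 CPM, and the chemokine gene Cxcl9 from 18.2 ± 2.66 to 54.7 ± 4.44 CPM (SD, n = 3 each; adjusted p = 0.00201 in edgeR for each of the 4). The exception, named after its values were seen, was the third immunoproteasome subunit gene Psmb10, with 150.4, 180.0 and 154.6 CPM in WT and 71.8, 102.4 and 72.0 CPM in PARP2 KO (log2 difference -0.98, standard error 0.167, adjusted p = 0.0052 in edgeR). Its call held under all 15 other settings.

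Antiviral genes driven by ISGF3 and Irf7 lay on both sides. Of 30 listed, 9 rose, 7 fell and 14 did not pass, shares close to the 28% higher and 25% lower of all tested genes, so the counts do not set the list apart. Its median log2 fold change was -0.18, against 0.02 over all tested genes. Trim30a went from 66.7 ± 4.90 to 148 ± 7.61 CPM and Samd9l from 115.8 ± 4.06 to 251 ± 17.5 CPM, while Mx1, a GTPase gene against influenza-like viruses, went from 20.9 ± 0.808 to 37.0 ± 5.50 CPM (SD, n = 3 each). Dtx3l rose by 0.57 on the log2 scale. Among the genes that fell, named after their values were seen, Bst2, which encodes the virus-tethering protein tetherin, had 170.7, 225.2 and 157.3 CPM in WT and 69.6, 111.8 and 73.2 CPM in PARP2 KO. Oas2, which encodes a sensor of double-stranded RNA, had 141.7, 235.6 and 139.5 against 36.3, 76.9 and 25.4 CPM. WT replicate 2 and PARP2 KO replicate 2, which are not a pair, were the highest libraries of their groups for these 2 genes, as for Irf7. Over the whole list the median relative to the WT mean was -0.10, 0.40 and -0.23 in WT replicates 1, 2 and 3 and -0.33, 0.16 and -0.51 in PARP2 KO.

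The number of these antiviral genes that fell depended on the processing and on single libraries. It was 1 with sex as a term, 2 with no count filter, 4 when library totals alone set the scale and 11 with DESeq2. It was 2 without WT replicate 2, 1 without PARP2 KO replicate 1, 3 without PARP2 KO replicate 3 and 11 without PARP2 KO replicate 2. The call of Bst2 held in each case. That of Oas2 ended with sex as a term, with no count filter, and without WT replicate 2 or PARP2 KO replicate 1 (edgeR adjusted p up to 0.0716). The ubiquitin-like modifier gene Isg15, picked with its values known, had 29.4, 52.8 and 28.4 CPM in WT and 18.6, 28.5 and 18.8 CPM in PARP2 KO and did not pass (edgeR adjusted p = 0.0823).

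Targets of Irf8 in myeloid and B cells were higher in 15 of 20 cases and lower in 0. These and the Irf4 counts below are to be read beside 28% higher and 25% lower of all tested genes. The Irf8 list had a median log2 fold change of 0.92. At an unadjusted p under 0.05 in edgeR, and by DESeq2 or limma, also 0 of its genes were lower. Of the 20 genes 7 are also cell type markers used above. The oxidase gene Cybb had 111.7, 110.9 and 113.0 CPM in WT and 193.8, 212.8 and 206.5 CPM in PARP2 KO. The B cell linker gene Blnk, the Toll-like homologue gene Cd180 and the growth factor receptor gene Csf1r rose by 1.22, 1.65 and 1.06 on the log2 scale. Targets of Irf4 were higher in 9 of 14 tested cases and lower in 2 (median 1.02), with 5 higher without PARP2 KO replicate 1. Ccr6, a homing receptor gene, went from 3.98 ± 2.26 to 35.3 ± 7.29 CPM and Bcl6, the germinal centre factor gene, from 21.8 ± 4.86 to 54.0 ± 9.72 CPM, and Il10 from 0.70 ± 0.142 to 1.72 ± 0.31 CPM (SD, n = 3 each). The 2 that fell both serve secretion in plasma cells, Ell2 (log2 fold change -0.97) and, named after its values were seen, Xbp1 (-0.92), which acinar cells also use. Of 12 targets of Irf5, 5 rose and 2 fell (median 0.53), beside 28% higher and 25% lower of all tested genes. Counts in a list this short do not set it apart. Il12a, Ccl5, Ccr7, Il10 and, named after its values were seen, Pmaip1 rose by 0.69 to 3.01 on the log2 scale. Bbc3 and, also named afterwards, Il23a fell by 1.23 and 3.25, and the call of Il23a ended without PARP2 KO replicate 1 (edgeR adjusted p = 0.0645).

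**Figure D4:**
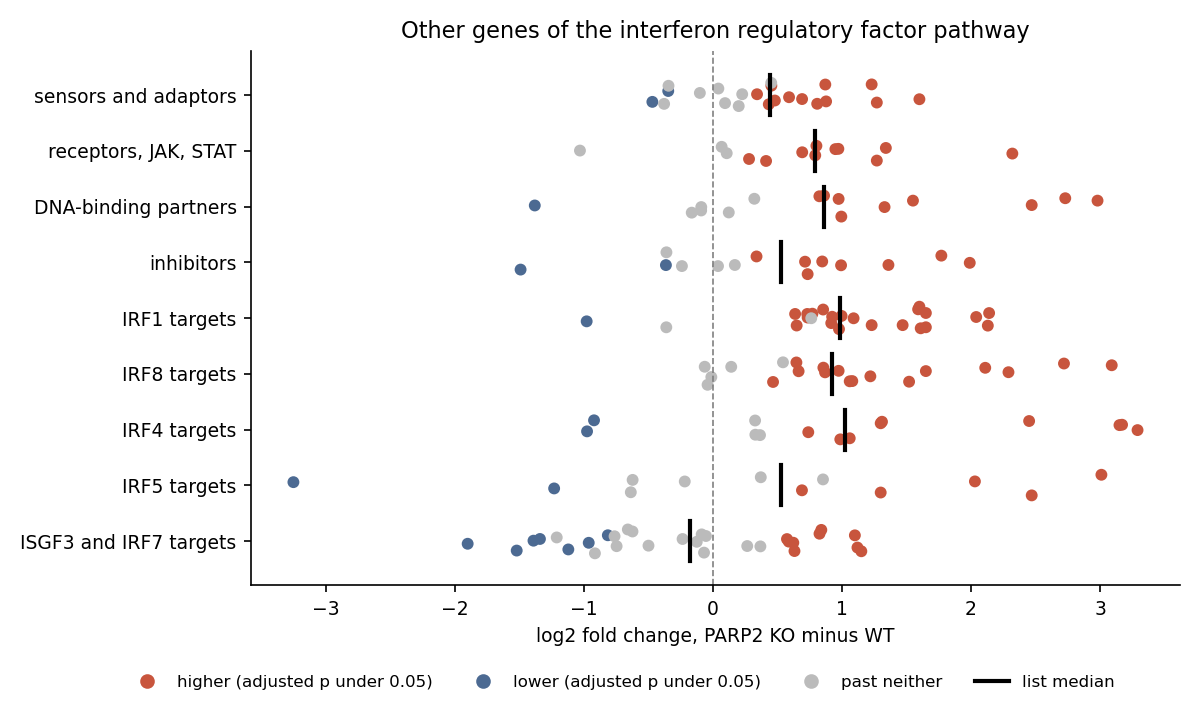
Log2 fold change (PARP2 KO minus WT, horizontal axis) of every tested gene in 9 lists of the pathway, 1 point per gene, coloured by the edgeR call, with the list median as a bar. The list of Irf1 targets lies almost wholly to the right (21 of 24 higher), while that of ISGF3 and Irf7 targets lies on both sides (9 higher, 7 lower). Of all tested genes, 28% were higher and 25% lower.

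Cofactors of Irf2 did not follow the members that rose. The corepressor gene Irf2bp1 fell from 49.7 ± 3.91 to 26.4 ± 3.56 CPM (SD, n = 3 each, with adjusted p = 0.00308 in edgeR). Irf2bp2 and Irf2bpl had log2 fold changes of -0.18 and 0.14 and did not pass.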

How the data were processed

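Read counts per gene were measured by stranded mRNA sequencing of pancreas from 3 WT and 3 PARP2 KO animals. The authors deposited raw counts, whole numbers that had not been normalised, and a table of log2 values. The deposited log2 values equalled log2 of counts over DESeq2 size factors plus 1, within 5.2e-14. The submitters' processing notes name the build GRCm38 (mm10) and the tools STAR 2.5.3a, FastQC 0.11.5 and DESeq2 1.28.1, without their roles. For the counting, the sources used here give no program, strand setting or annotation release.

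Counts entered the quasi-likelihood test of edgeR 4.0.16 (R 4.3.3) with TMM scaling, robust dispersion, the default group-wise filter and genotype as the only term. P-values were adjusted by Benjamini-Hochberg over all tested genes, with 0.05 as the threshold. SE is the log2 fold change over the square root of F. Alternatives were other scalings and filters, DESeq2 1.42.0, limma 3.58.1, a sex term and each library left out in turn. The procedure was tested on simulated counts in which few genes changed, as many up as down. That setting lacks the shift in acinar share seen here, so it does not test the scaling for these data. Exon lengths and overlaps came from GENCODE vM21 (GRCm38), promoters from RefSeq (GRCm38.p6).

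The members and gene lists were chosen with earlier results of these data known. Named genes were the members, Parp2, up to 4 genes of smallest p in each pathway list, the 3 nearest profiles of each called member and the defining markers. The text marks any other gene as named with its values known. Some genes that this rule names are not reported here. Exons of Irf1, Irf3, Irf7 and Irf9 share between 45 and 135 bases with neighbouring genes. Replicates differed by more than sampling noise (chi-square per degree of freedom 29.1 to 461).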

Additional observations from a re-analysis of the deposited data

How the results depend on the processing

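The 5 rises among the members passed under each of the 15 alternatives, and 0 members fell under any of them by edgeR, DESeq2 or limma. Scaling by library totals alone gave 7475 genes higher in PARP2 KO and 2160 genes lower in PARP2 KO, against 4938 and 4415. The Irf7 log2 fold change then turned to 0.0139, the Irf2bp2 log2 fold change to 0.195 and the Ticam1 log2 fold change to 0.0516. Leaving out each library in turn gave 3602 to 5125 genes higher in PARP2 KO and 2543 (without PARP2 KO replicate 1) to 5032 genes lower in PARP2 KO. With Ptprc in place of the leukocyte list, 1 member in place of 2 exceeded the reference, and the value of Irf8 relative to leukocyte genes turned to -0.072. No paired analysis was made, because the labels give no factor that pairs animals across the genotypes. With 3 libraries a group, an exact permutation test cannot go below 0.10. Summed acinar, islet and duct markers were lower, and fat, endothelial and leukocyte markers higher, in all PARP2 KO libraries than in WT, so effects of Parp2 loss and of cell make-up cannot be told apart.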
